A study of Mus musculus with 5 samples.

Results

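A total of 8030 bins of 1 kb on the 19 autosomes stood at 3 or more times the input in each of 4 libraries that enrich modified DNA from mouse embryonic stem cells. They were chosen from 2297452 autosomal bins that held a read in at least 1 library. The ratio of a bin was (RPM + 0.5)/(input RPM + 0.5), where RPM is the library-size-scaled read count, with the reads on chromosomes 1 to 19 and X as the library size, and each read was placed by its midpoint. Members of the set passed at a ratio of 3 in both MethylCap eluates, in MeDIP and in hMeDIP, and all bins in all 4 libraries were compared with the same input. The ratios chose the members, so strengths below are descriptions. Position on the chromosome, spacing, neighbouring bins and the strand of the reads were not part of the choice.

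In mammals, 5-methylcytosine (5mC) lies mostly at CpG dinucleotides, where it is written by DNA methyltransferases. TET dioxygenases, which embryonic stem cells express at high levels, oxidise it to 5-hydroxymethylcytosine (5hmC). The methyl-CpG binding domain (MBD) used in MethylCap binds methylated CpG in double-stranded DNA, binds dense clusters of it best, and binds 5hmC poorly. Antibodies to 5mC and 5hmC are each meant to bind 1 of these bases. A bin that is high in all 4 libraries therefore carries signal in assays with different targets, measured over many cells, and the data do not tell whether both bases occur in the same cells or alleles.

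The samples were genomic DNA of E14 embryonic stem cells grown without feeders in 10% fetal calf serum and leukaemia inhibitory factor, with 1 library per group. DNA for the 4 enriched libraries was taken from E14 gene-trap clones at passages 11 to 14. They were a MethylCap eluate at 600 mM NaCl, a MethylCap eluate at 800 mM NaCl, MeDIP with a Diagenode antibody to 5mC, and hMeDIP with an Active Motif antibody to 5hmC. Input was DNA from chromatin of TNG-A cells, an E14 derivative with an EGFP reporter at Nanog. The input thus came from another line and another kind of preparation, which cannot be told apart from the enrichment itself in any ratio to it. No mock pulldown was among the libraries. Reads on chromosomes 1 to 19 and X numbered 10462783 at 600 mM, 7507520 at 800 mM, 10442811 in MeDIP, 18519740 in hMeDIP and 18676265 in input. With 1 library per group no test was possible, and no difference below has a replicate check. Intervals are exact 95% intervals of read ratios (Clopper-Pearson), and they describe counting error alone, because the reads carry no molecular identifier and need not be separate molecules. They do not allow for the choice of bins by these same reads, input reads included. Positions are in mm9, and no gene is named, because no annotation of that build was used here.

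The 8030 members were 0.350% of the bins with a read. Taken singly, 3.52% of the bins reached a ratio of 3 at 600 mM, 4.52% at 800 mM, 2.64% in MeDIP and 2.04% in hMeDIP. Members made up 17.1% of the hMeDIP list of 46852 bins, 13.2% of the MeDIP list of 60650, 9.93% of the 600 mM list of 80903 and 7.74% of the 800 mM list of 103775. A further 24460 bins passed in exactly 3 libraries.

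Members were poor in input reads. Their median was 4 input reads against 7 over all bins with a read, 266 members held no input read, and 2149 (26.8%) held 2 or fewer, compared with 9.67% of all bins. A rule that divides by the input favours such bins. When input was averaged over the 11 kb around each bin, 5108 bins passed, of which 4149 were among the members (51.7% of them). To see how far the choice lowered the input reads, these were also split at random into 2 parts. Members called with the first part (10473 bins) were 10.7-fold over the other part at 600 mM and 9.83-fold at 800 mM. The antibody libraries stood at 9.81-fold (MeDIP) and 8.06-fold (hMeDIP). The corresponding folds over the part that called them were 20.9, 19.2, 19.2 and 15.8. The folds over input reads that had not chosen the bins were lower in all 4 libraries. The reads of the enriched libraries were not split, so these folds too depend on the choice.

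Strength was similar in the 3 libraries aimed at 5mC and lower in hMeDIP. The median ratio over members was 4.87 at 600 mM, 4.99 at 800 mM, 4.82 in MeDIP and 4.11 in hMeDIP. Median read counts per member, taken separately and in the same order, were 32, 23, 31 and 46. In summed reads, members were 16.9-fold over input at 600 mM (16.8 to 17.1), 15.1-fold at 800 mM (14.9 to 15.2), 15.5-fold in MeDIP (15.3 to 15.7) and 12.6-fold in hMeDIP (12.4 to 12.7). These intervals do not cover the choice of bins poor in input reads. As given above, bins called with 1 part of the input stood at 10.7-fold over the other part at 600 mM. The summed folds exceed the median ratios because the pseudocount draws bins with few reads toward 1. Over all other bins the same sums were between 1.000 and 1.01. Members held 3.15% of the reads of the 600 mM eluate, 2.80% at 800 mM, 2.88% in MeDIP and 2.34% in hMeDIP.

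Most members lay close to the threshold in at least 1 library. The lowest of the 4 ratios was under 3.5 in 3960 members and 4 or more in 2069 (25.8%). It was 5 or more in 590 (7.35%), 8 or more in 21 and 10 or more in 5. Another 9532 bins had a lowest ratio from 2.5 to 3, so the edge of the set cuts through a continuous range. hMeDIP gave the lowest ratio in 3312 members and the highest in 914. MeDIP was highest in 2558 members, the 800 mM eluate in 2446 and the 600 mM eluate in 2112. The upper tail was longest at 600 mM, where 683 members reached a ratio of 10 and 156 a ratio of 20. At a ratio of 20 there were 12 members in the 800 mM eluate, 19 in MeDIP and 1 in hMeDIP.

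**Figure D1:**
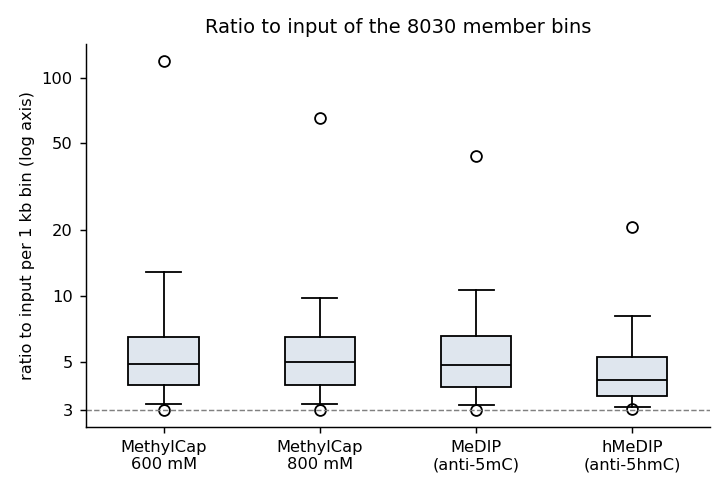
Ratio to input (log axis) of the 8030 member bins in each of the 4 enriched libraries, 1 library each: line, median; box, 25th to 75th percentile; whiskers, 5th to 95th percentile; circles, lowest and highest bin; dashed line, the threshold of 3. Medians run from 4.11 in hMeDIP to 4.99 in the 800 mM eluate, and the highest bin falls from 118.8 at 600 mM to 20.7 in hMeDIP.

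Across members, reads of the antibody libraries rose and fell together more than reads of an antibody and an eluate. Spearman's rho of read counts was 0.605 between the eluates and 0.520 between MeDIP and hMeDIP, over 8030 bins that share mappability and local depth. It was 0.387 between the 600 mM eluate and MeDIP, 0.331 between the 600 mM eluate and hMeDIP, 0.200 between the 800 mM eluate and MeDIP, and 0.166 between the 800 mM eluate and hMeDIP. All members had passed a minimum in every library, which narrows the range behind these values. In RPM this minimum is the same for all 4 libraries and rises with the input of the bin, which by itself raises every rho.

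The member with the highest lowest ratio, among those with at least 5 input reads, was on chromosome 3 at 108707001–108708000. It held 204 reads at 600 mM, 74 at 800 mM, 123 in MeDIP and 165 in hMeDIP against 5 in input. Its ratios were 26.05, 13.49, 15.99 and 12.26. Without the pseudocount its folds were 72.8, 36.8, 44.0 and 33.3, and the lower ends of their intervals were 30.7, 15.1, 18.4 and 14.0. The bin was picked as the highest of many, which these intervals do not allow for. The next, on chromosome 11 at 116607001–116608000, leaned to the antibodies, with 244 MeDIP and 291 hMeDIP reads (ratios of 29.1 and 19.7) against 121 reads at 600 mM and 64 at 800 mM (14.7 and 11.0). The bin on chromosome 17 at 85013001–85014000 had the same lean, at 28.6 in MeDIP and 17.2 in hMeDIP but 10.2 and 8.59 in the eluates. A bin on chromosome 7 at 89920001–89921000 leaned the other way. It held 458 reads at 600 mM, 259 at 800 mM, 200 in MeDIP and 153 in hMeDIP against 8 in input, for ratios of 47.7, 37.7, 21.2 and 9.44. It also had the highest 800 mM ratio of all members with 5 or more input reads. The other 6 of the 10 strongest lay on chromosome 5 at 76056001–76057000, 114064001–114065000 and 24430001–24431000, on chromosome 7 at 126171001–126172000, on chromosome 3 at 118847001–118848000 and on chromosome 8 at 123798001–123799000. Their lowest ratios ran from 7.58 to 9.40.

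The members strongest in single libraries differed in how they stood in the other libraries, and the lists overlapped. They were picked as extremes of the ratios that the rule used. All values in this comparison are for members with 5 or more input reads, since the highest ratios over all members, such as 118.8 at 600 mM and 43.8 in MeDIP, include bins with fewer. Among them, the 5 highest at 600 mM had ratios of 44.4 to 54.2 there, and 4 of them were at 3.19 to 6.83 in hMeDIP. The first of these, on chromosome 19 at 24205001–24206000, held 430 reads at 600 mM, 94 at 800 mM, 44 in MeDIP and 67 in hMeDIP against 5 in input. The highest MeDIP ratio among them was on chromosome 5 at 112058001–112059000, with 230 MeDIP and 255 hMeDIP reads (29.3 and 18.6) but 49 reads at 600 mM and 18 at 800 mM (6.75 and 3.77) against 5 in input. A bin on chromosome 5 at 148019001–148020000 was almost as high in MeDIP (294 reads, 29.2) and at 36.1 in the 600 mM eluate, yet at 4.36 in hMeDIP (70 reads). A bin on chromosome 10 at 126502001–126503000 stood out at 800 mM, with 133 reads and a ratio of 20.8, while 39 reads at 600 mM gave 4.83. The hMeDIP ratios of the 5 highest bins at 600 mM, from 3.19 to 9.44, lay on both sides of the median of all members, 4.11. The highest MeDIP and hMeDIP ratios mostly shared bins: 3 of the 5 highest were in both lists. The lists of the 2 eluates shared bins too, the chromosome 19 bin among them.

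At the threshold, the 3 members just inside had a 600 mM ratio of 3.001 from 34 reads against 14 in input. They lay on chromosome 4 at 151348001–151349000, chromosome 10 at 107889001–107890000 and chromosome 16 at 90336001–90337000. The nearest bins outside lay on chromosome 17 at 28629001–28630000, with 2.999 at 800 mM, on chromosome 11 at 3050001–3051000, with 2.997 in hMeDIP, and on chromosome 9 at 60900001–60901000, with 2.991 in hMeDIP. The bin outside on chromosome 11 held 764, 576, 598 and 381 reads in the 4 libraries and 122 in input. Near it, at 3093001–3094000, lay the member with the most reads, 1480 at 600 mM, 925 at 800 mM, 653 in MeDIP and 825 in hMeDIP against 243 in input, for ratios of 10.5, 9.16, 4.67 and 3.33. Only 5 of the 8030 members held 20 or more input reads, where 33351 of all 2297452 bins did. The rule divides by the input and so selects against such bins.

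The density of members differed between chromosomes. Chromosome 5 had the most, with 813 members (5.77 per 1000 bins with a read), followed by chromosome 11 with 5.61, chromosome 17 with 5.50, chromosome 4 with 5.24 and chromosome 8 with 5.20 per 1000. Chromosome 14 had the fewest, with 172 (1.53 per 1000), and chromosomes 3 and 1 were at 1.74 and 1.78 per 1000. Together, the 7 richest chromosomes by count held over 50% of the members. The bins that were not members followed the same order in part. Their 600 mM fold over input was 1.23 on chromosome 5 and 0.772 on chromosome 14, and their MeDIP fold was 1.15 and 0.826. Median input per bin was 7 or 8 reads on every autosome. Over chromosomes, the median ratio of the members ranged from 4.58 to 5.12 at 600 mM and from 4.47 to 5.23 at 800 mM. It ranged from 4.52 to 5.06 in MeDIP and from 3.87 to 4.22 in hMeDIP. The ratios were cut at the threshold, which holds such medians close together on any chromosome.

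Members were frequent toward the distal chromosome end, but not at its tip. Mouse autosomes are telocentric, with the centromere at the proximal end, where positions are counted from, and the distal end was taken here as the last read on the chromosome. The last 5 Mb held 739 members, 9.20% of the set against 4.00% of the bins with a read. The last 10 Mb held 20.4% of the members and 7.94% of the bins, and the last 20 Mb held 36.06% and 15.98%. Density peaked from 2 to 5 Mb from the end, at 10.8 members per 1000 bins, and was 9.96 from 5 to 10 Mb and 6.81 from 10 to 20 Mb. It was 4.84 from 1 to 2 Mb and 2.85 within the last 1 Mb (52 members), where 0.648% of the members and 0.795% of the bins lay. Beyond 40 Mb from the distal end it was 2.35 per 1000. Median input was 7 reads per bin in each of these distance classes.

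The proximal side was poor in members. The first 10 Mb after the first read held 4.46% of the members and 7.61% of the bins, and density was lowest from 10 to 20 Mb, at 1.24 per 1000 bins. The share of members in the proximal 10 Mb was below that of bins on 18 of 19 autosomes. Chromosome 19 was the exception, with 36.2% of its members against 16.9% of its bins.

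The distal excess was found on 14 of 19 autosomes for the last 5 Mb and on 17 of 19 for the last 10 Mb. On chromosome 4, 141 of 755 members (18.7%) lay in the last 5 Mb, which held 3.44% of its bins. On chromosome 11 these values were 17.3% and 4.26%, on chromosome 15 they were 18.9% and 5.09%, and on chromosome 16 they were 20.3% and 5.10%. By contrast, none of the 484 members of chromosome 17 and none of the 210 of chromosome 18 lay there, 1 of 260 did on chromosome 13, 5 of 313 on chromosome 12 and 2 of 262 on chromosome 3. Without chromosomes 4 and 5, which had the most members, the shares over the remaining autosomes were 8.50% of members and 4.08% of bins.

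**Figure D2:**
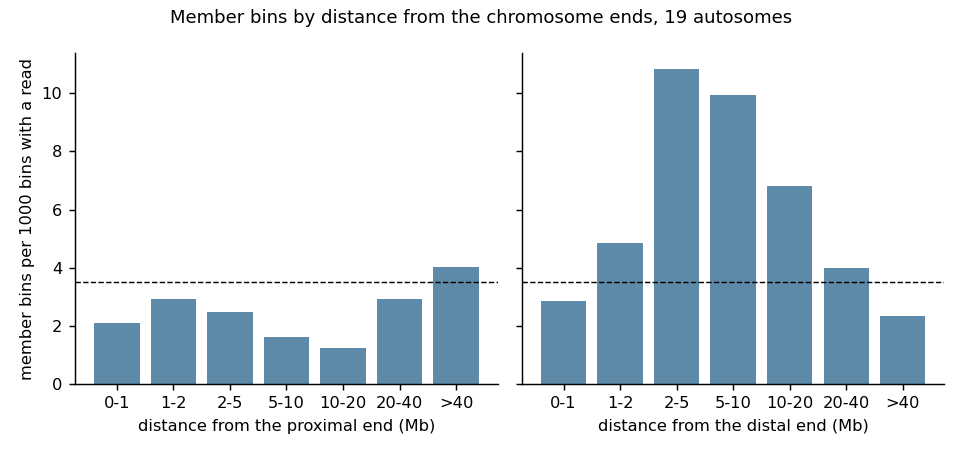
Member bins per 1000 bins with a read (y axis) by distance in Mb from the proximal (left) and distal (right) end of the 19 autosomes; dashed line, the average over all autosomal bins. Density peaks at 10.8 from 2 to 5 Mb from the distal end and is lowest, at 1.24, from 10 to 20 Mb from the proximal end.

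The same distal zone was higher in bins that were not members. From 2 to 5 Mb from the distal end these bins were 1.70-fold over input at 600 mM and 1.74-fold at 800 mM, and 1.49-fold (MeDIP) and 1.44-fold (hMeDIP) with the antibodies. In the last 1 Mb they were 0.682-fold, 0.675-fold, 0.735-fold and 0.808-fold, and beyond 40 Mb 0.866-fold, 0.861-fold, 0.906-fold and 0.923-fold. From 2 to 5 Mb the median ratios of the members were 4.85, 4.99, 4.92 and 4.12, and beyond 40 Mb 4.83, 4.99, 4.73 and 4.10. Within the last 1 Mb the medians were 5.75, 5.83, 5.02 and 4.37, from 52 members with a median of 3 input reads. These medians are of ratios cut at the threshold, which holds them close together.

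Members clustered at the scale of 1 Mb. Of 2377 windows of 1 Mb with at least 500 covered bins, 996 (41.9%) held no member, the median window held 1 and the mean was 3.38. The variance of the counts was 10.6 times their mean. The 237 fullest windows, each with 10 or more members, held 53.6% of all members, and 62 windows with 21 to 56 members held 22.5%. The median distance from a member to the nearest other member was 20 kb, with 37.7% within 10 kb and 79.96% within 100 kb. The average spacing was 286.1 kb of covered sequence. These are unlike measures, since a median distance to the nearer side lies below an average spacing even for bins placed at random. Only 139 members (1.73%) had no other within 1 Mb.

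The fullest window was on chromosome 8 at 123000001–124000000, with 56 members among 995 covered bins (5.63%) in 50 separate runs. Median ratios of its members were 5.56 at 600 mM, 5.41 at 800 mM, 5.90 in MeDIP and 5.17 in hMeDIP, each above the median of all members. The window on chromosome 5 at 114000001–115000000 held 52 members, and neighbouring windows on chromosome 10 at 79000001–80000000 and 80000001–81000000 held 43 each. In the latter pair the eluates were high, with median 800 mM ratios of 6.93 and 6.90, while MeDIP was at 4.41 and 4.53 and hMeDIP at 4.03 and 3.90. The window on chromosome 4 at 151000001–152000000 held 42, the one on chromosome 17 at 30000001–31000000 held 39, and those on chromosome 4 at 139000001–140000000 and on chromosome 11 at 118000001–119000000 held 37 each. The list of 10 ends with chromosome 2 at 167000001–168000000 (36) and chromosome 8 at 124000001–125000000 (34), which adjoins the fullest window. Of these 10 windows, 4 ended within 8 Mb of the distal end, and 4 ended over 30 Mb from it, at 37.5 to 64.3 Mb. Members were therefore dense in interior regions as well.

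Windows rich in members were also higher in the bins that were not members. In windows without a member, these bins were 0.463-fold over input at 600 mM and 0.447-fold at 800 mM, and with the antibodies 0.621-fold (MeDIP) and 0.639-fold (hMeDIP). The folds rose with each class of member count and reached 2.71, 2.85, 2.05 and 2.17 in windows with 21 or more. Mean input per such bin was 7.51 reads in windows without members and 7.65 in the richest windows. The median ratio of the members rose between windows with 1 or 2 members and those with 21 or more from 4.71 to 5.13 at 600 mM and from 4.52 to 5.42 at 800 mM. It went from 4.92 to 4.77 in MeDIP and was 4.19 in both classes in hMeDIP. In the fullest window, bins that were not members stood at 4.49-fold, 4.59-fold, 3.26-fold and 3.01-fold.

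**Figure D3:**
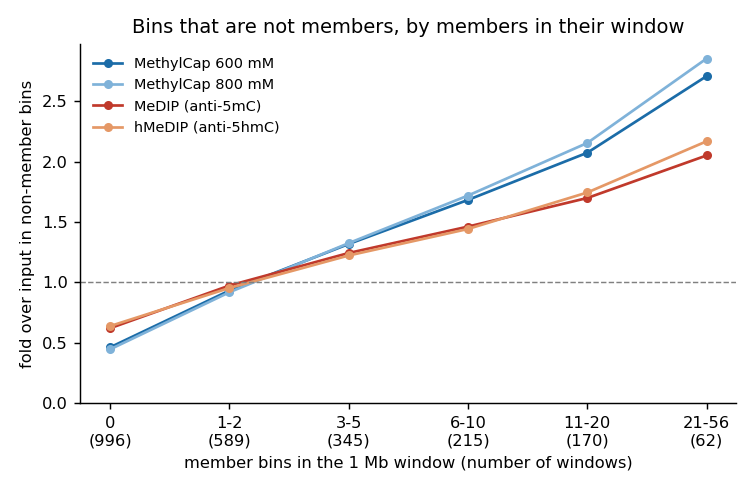
Summed reads over summed input (y axis, fold) of bins that are not members, in 1 Mb windows grouped by their number of member bins (x axis, with the number of windows in brackets), for 4 libraries. The 4 curves rise together, from 0.447 to 0.639 in windows without members to 2.05 to 2.85 in windows with 21 to 56.

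The longest stretch without a member was on chromosome 14 at 80156001–102286000, 22.1 Mb with 21466 covered bins. It was 0.323-fold over input at 600 mM and 0.309-fold at 800 mM. The antibody folds were 0.472 (MeDIP) and 0.487 (hMeDIP), over a mean of 8.93 input reads per bin. The next were 18.7 Mb on chromosome 4 at 63679001–82380000 and 15.95 Mb on chromosome 6 at 55339001–71291000. In these the 600 mM folds were 0.330 and 0.445 and the hMeDIP folds 0.564 and 0.637, with 6.92 and 7.56 input reads per bin. All 3 stretches were thus covered in input and low in the 4 enriched libraries.

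At the scale of single bins, members were mostly isolated. They formed 7419 runs of adjacent bins, 6898 of which (93.0%) were 1 bin long, and 1132 members (14.1%) touched another member. There were 455 runs of 2 bins, 48 of 3, 13 of 4, 4 of 5 and 1 of 6. The rule asks for 4 ratios at once, so a run breaks where any library falls short, and the run length is not the width of the signal.

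The run of 6 bins was on chromosome 15 at 76004001–76010000. It held 1100 reads at 600 mM (70.1-fold, 48.2 to 106.0), 368 at 800 mM (32.7-fold, 22.2 to 49.9), 228 in MeDIP (14.6-fold, 9.81 to 22.4) and 451 in hMeDIP (16.2-fold, 11.1 to 24.7) against 28 in input. Its 10 flanking bins, 5 on each side, were 28.3-fold, 19.4-fold, 8.94-fold and 7.72-fold over input, so signal continued past the run. The 600 mM ratio varied most inside it, from 8.49 in the third bin to 46.2 in the second. The runs of 5 bins were on chromosome 4 at 141027001–141032000, chromosome 8 at 46107001–46112000, and chromosome 5 at 116059001–116064000 and 114859001–114864000. On chromosome 8 the run held 733, 268, 305 and 402 reads against 44 in input (29.7-fold, 15.2-fold, 12.4-fold and 9.21-fold), and its flanks fell to 5.95-fold, 4.26-fold, 3.33-fold and 1.97-fold. On chromosome 4 the folds were 32.9, 28.0, 13.2 and 13.7 and the flanks were at 16.3, 10.7, 5.29 and 5.30. The run on chromosome 5 at 114859001–114864000 lay inside the window with 52 members named above.

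Around members in general, enrichment dropped within 1 kb and then declined slowly. Bins next to a member that were not members themselves (14620 bins) were 3.97-fold over input at 600 mM and 4.10-fold at 800 mM, and 2.98-fold (MeDIP) and 2.71-fold (hMeDIP) with the antibodies. At 10 kb the folds were 2.53, 2.63, 1.98 and 1.96, and at 50 kb 2.10, 2.17, 1.70 and 1.76. Mean input was 7.03 reads per bin next to members, 7.54 at 10 kb and 7.86 at 50 kb, against 4.33 in the members, whose own folds were fixed by the choice. Among the adjacent bins, 24.7% reached a ratio of 3 at 600 mM, 27.9% at 800 mM, 14.8% in MeDIP and 10.4% in hMeDIP. At 50 kb these shares were 10.3%, 12.7%, 6.36% and 5.33%, still above those over all bins given at the start. The decline was not particular to members. For bins enriched in both eluates and MeDIP but not hMeDIP, the bins 1 kb before them were at 3.72, 3.82, 2.84 and 2.14. Those 50 kb before were at 1.95, 2.00, 1.66 and 1.66. For bins enriched in both antibody libraries but in neither eluate, the folds 1 kb before were 2.14, 2.06, 2.17 and 2.10. At 1 kb after, the eluates and MeDIP were also lower around these bins than around those without hMeDIP enrichment. The hMeDIP fold there was 2.14 against 2.12.

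**Figure D4:**
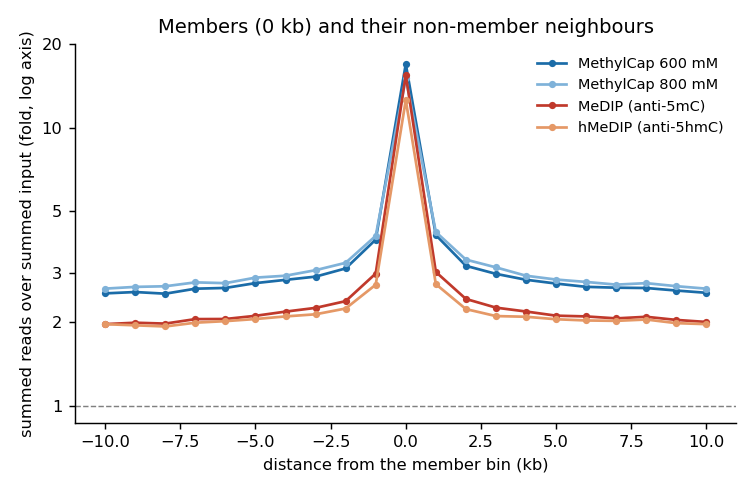
Summed reads over summed input (y axis, fold, log axis) in member bins (0 kb) and in bins up to 10 kb away that are not members (x axis, kb), for 4 libraries; dashed line, input level. The value at 0 kb was fixed by the choice of bins, and at 10 kb the curves lie between 1.96 and 2.63.

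Compared directly, without input, the 5hmC antibody gave 0.812 times the RPM of the 5mC antibody over the members (0.808 to 0.816), and 0.998 times over all bins. It was below 1 on all 19 autosomes. Reads of all 4 libraries entered the choice of members, so this value depends on that choice. It was 1.04 in bins enriched in both antibody libraries but in neither eluate. In bins enriched in both eluates and MeDIP but not hMeDIP it was 0.358. For single members it spread from 0.478 at the 5th percentile to 1.49 at the 95th. The 5hmC antibody was at least 2-fold lower in 495 members (6.16%) and at least 2-fold higher in 45 (0.560%), where 3.36% and 3.86% of all bins were past these limits. Between the eluates, 800 mM gave 0.889 times the RPM of 600 mM in sum (0.884 to 0.894), again below 1 on every autosome, but the median over members was 0.996. The sum is weighted to the long 600 mM tail. By distance from the distal end it ranged from 0.833 in the last 1 Mb to 0.941 from 2 to 5 Mb, with 0.876 beyond 40 Mb.

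Reads of the antibody libraries often lay mostly on 1 strand, which the rule does not use. Per the labels' protocols, adaptor-ligated DNA was denatured before it met the antibodies, and no denaturation is described for MethylCap. Whether one-sided antibody reads were bound through modified bases or through other features of single-stranded DNA was not tested, so the MeDIP and hMeDIP ratios of such bins are ratios of antibody-bound reads. A bin was called one-sided where 80% or more of its reads, with at least 20 present, lay on the same strand. One-sided members made up 42.5% in MeDIP (2969 of 6991) and 34.3% in hMeDIP (2748 of 8020), but 1.15% at 600 mM (83 of 7214) and 0.558% at 800 mM (30 of 5377). In the 4694 members with 20 or more reads in all 4 libraries, each thinned to 20 reads, the shares were 42.8%, 36.3%, 2.51% and 1.87%. Neither strand was preferred over the genome: 1482 MeDIP members were one-sided to plus and 1487 to minus.

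Both antibodies favoured the same strand. Of 6989 members with 20 or more reads in each antibody library, 1902 were one-sided in both. The fuller strand was the same in 1901 of them and opposite in 1. Pearson's r of the plus-strand share between MeDIP and hMeDIP was 0.884 over these bins. Over all 42984 autosomal bins with such depth, 15268 (35.5%) were one-sided to the same strand and 9 to opposite strands, with an r of 0.890, so the shared strand was not particular to the members. Among all 6989, 3392 (48.5%) were one-sided in neither library. The threshold of 80% and the minimum of 20 reads were chosen after the data were seen: the share of members one-sided in both to the same strand was 27.2% with them, 37.6% at 75%, 6.40% at 90%, and 48.0% (1068 of 2225) where at least 40 reads were required. These 4 settings had at most 2 members with opposite strands.

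The strongest members show the pattern in single bins. On chromosome 11 at 116607001–116608000, 228 of 244 MeDIP reads and 270 of 291 hMeDIP reads were on the minus strand, while the 600 mM reads split into 61 plus and 60 minus. On chromosome 17 at 85013001–85014000, 253 of 304 MeDIP and 289 of 321 hMeDIP reads were on the plus strand, against 48 plus and 57 minus at 600 mM. On chromosome 5 at 112058001–112059000, 225 of 230 MeDIP reads and 254 of 255 hMeDIP reads were minus. The chromosome 19 bin that led at 600 mM was balanced in every library, with 28 plus and 16 minus reads in MeDIP and 39 and 28 in hMeDIP. Within the run of 5 bins on chromosome 5 at 114859001–114864000 the favoured strand changed: 38 of 46 MeDIP reads in its first bin were plus, and 29 of 31 in its last were minus.

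**Figure D5:**
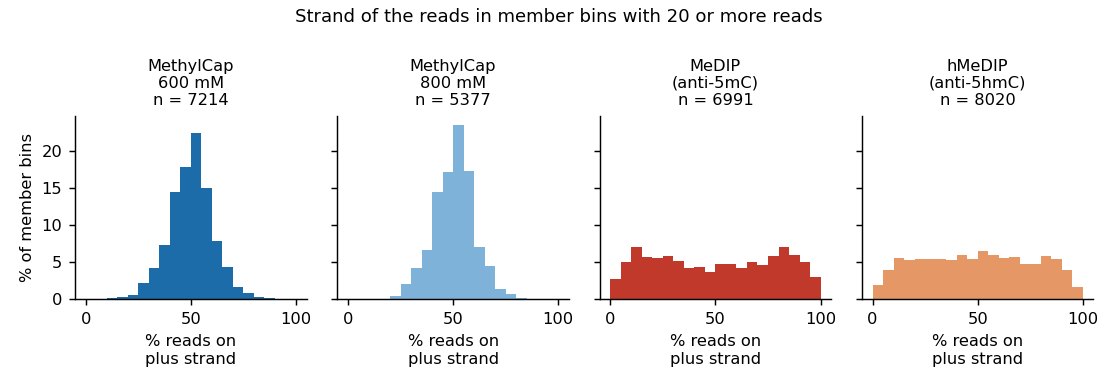
Share of reads on the plus strand (x axis, percent) in member bins with 20 or more reads, as percent of those bins (y axis), 1 panel per library with its number of bins. The eluates form a narrow peak at 50%, and the antibody libraries spread over the whole range.

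Members one-sided to the same strand in both antibody libraries differed in strength from members one-sided in neither. The 1901 one-sided members had median ratios of 6.56 in MeDIP and 4.93 in hMeDIP, against 4.72 and 3.94 in the 3392 others. In the eluates the order was the opposite, at 4.66 and 4.27 for 600 and 800 mM against 5.16 and 5.47. Their median input was the same, 4 reads. The last 5 Mb of chromosomes held 10.4% of one-sided and 8.93% of the other members, and 11.6% and 16.7% of them touched a member. These groups were set by antibody reads, which also enter the ratios.

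One-sidedness was not particular to the members. Among bins enriched in both antibody libraries but in neither eluate (9288 bins), 72.1% were one-sided in MeDIP and 74.8% in hMeDIP, and 4864 were one-sided in both to the same strand and 2 to opposite strands. Among bins enriched in both eluates and MeDIP but not hMeDIP (16314 bins), the shares were 27.9% and 22.6%. Over all bins with 20 or more reads they were 45.8% and 37.4%, and 0.366% in input. The order of members and all bins depended on which bins were kept. In bins with 20 or more reads in all 4 libraries, members were at 37.4% in MeDIP and 29.8% in hMeDIP. All bins kept in this way (11871, of which 4694 were members) were at 31.6% and 23.0%. Thinned to 20 reads, all bins were at 37.0% in MeDIP and 29.1% in hMeDIP, below the 42.8% and 36.3% of the members. With and without thinning, members lay between the antibody-only bins (31 of them when thinned) and the bins without hMeDIP enrichment. None of these differences was tested.

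The place of the fullest signal inside members was compared between libraries. Each bin was divided into 5 parts of 200 bp, with reads moved to 100 bp from their 5′ end, and 4738 members with 20 or more reads in all 4 libraries were compared. MeDIP and hMeDIP had the same fullest part in 55.2% of them, the eluates in 48.9%, the 600 mM eluate and MeDIP in 47.6%, and the 600 mM eluate and hMeDIP in 39.5%. The 800 mM eluate shared it with MeDIP in 40.8% and with hMeDIP in 33.9%. The shares were much the same in 7710 autosomal bins of that depth that were not members, at 51.6% for MeDIP and hMeDIP, 51.7% for the eluates and 47.7% for the 600 mM eluate and MeDIP. In members, the fullest part held a median of 38.7 to 42.9% of a library's reads in the bin.

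In location, the members differed from both related sets in degree. The last 5 Mb held 9.20% of the members, 7.74% of the bins enriched in both eluates and MeDIP but not hMeDIP, and 7.62% of the antibody-only bins. The lists of single libraries had 6.91 to 7.44% there. The median distance to the distal end was 35.4 Mb for members, 38.0 Mb and 47.2 Mb for the other sets and 62.9 Mb for all bins. The proximal 10 Mb held 4.46%, 5.18% and 5.91% of the 3 sets. In the same order, 14.1%, 15.0% and 8.48% of their bins touched another of the set. The median distance to the nearest other was 20, 12 and 42 kb, in sets of unlike size. Stronger members were placed alike, with 8.89% of those at a lowest ratio of 4 or more and 8.98% of those at 5 or more in the last 5 Mb. These lists share bins and the input, and with 1 library per group the differences between them were not tested.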

How the data were processed

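DNA of mouse embryonic stem cells was profiled with 5 libraries, 1 per group as the labels give them. The authors deposited lists of 35 bp reads, 1 per line, in which the deposited count column was 1 throughout. Reads were aligned to mm9 with BWA 0.5.8, per the submitters' processing notes. The sources used here do not give how duplicates were treated. The most reads found at any 1 position and strand were 2 in the eluates and 1 in each other library, which caps dense signal. The other deposited column, 0 or 1, has no meaning given in the sources used here.

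Reads were counted by midpoint in 1 kb bins with Python 3.11.15, NumPy 2.4.6, pandas 2.3.3 and SciPy 1.17.1, and scaled to RPM over chromosomes 1 to 19 and X. The calling code was run on simulated data whose input was drawn from averages over 11 kb. Such data lack differences in input between single bins beyond counting error, so the run does not cover the choice of bins poor in input. Named bins are the 10 members with the highest lowest ratio, the 5 highest per library, the 5 longest runs, the 10 fullest 1 Mb windows, the chromosomes with most and fewest members, and 3 bins on each side of the threshold. The first 2 lists require 5 input reads. Members and lists were chosen with earlier results of these data known, and strand, parts of bins and related sets were added after the data were seen. A planned annotation by gene and sequence was not run, because no genome or annotation of mm9 was used here.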

Additional observations from a re-analysis of the deposited data

Results flagged for a closer look

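Chromosome X lay outside the autosomal rule, and 26 of its 142638 bins with a read (0.0182%) reached a ratio of 3 in all 4 libraries. This is drawn to attention as signal in data that the comparisons did not use. These bins were 41.4-fold over input at 600 mM and 30.4-fold at 800 mM in summed reads, and with the antibodies 22.7-fold (MeDIP) and 12.4-fold (hMeDIP), with a median of 8 input reads. The 26 bins formed 15 runs, and a run of 9 bins at 166421001–166430000 held 172 of their 306 input reads. In the last 5 Mb of the chromosome lay 17 of the 26 bins. The share of all X bins in that stretch was not computed, so no distal excess is read from this count. How many copies of X each line carries was not tested.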

How the results depend on the processing

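The number of members depended on the settings: 50377 at a pseudocount of 0.1 RPM, 1236 at 1 RPM, 590 at a ratio of 5, 5319 with 500 bp bins, 3360 with at least 5 input reads, 19545 with ratios divided by the library median, and 5108 with input averaged over 11 kb. It stayed within 1.5 times of the main count under the other 5 alternatives, and the random parts of the input called 10473 and 10498 bins. The share in the last 5 Mb ran from 7.55% (0.1 RPM) to 10.3% (averaged input), with 8.48% after thinning to equal depth, above the 4.00% of all bins under every alternative.

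The share of members touching another was 26.3% at 0.1 RPM, 7.85% at 1 RPM, 12.8% with 500 bp bins, 4.24% at a ratio of 5, 7.35% with 5 input reads, 12.6% after thinning, 18.3% with median scaling, 12.7% with reads placed 100 bp from their 5′ end and 12.96% with averaged input. Median ratios, in the order 600 mM, 800 mM, MeDIP and hMeDIP, were 6.65, 7.03, 6.26 and 4.96 at 0.1 RPM, 4.53, 4.12, 4.54 and 3.79 at 1 RPM, and 8.14, 7.17, 8.28 and 6.51 at a ratio of 5. For 600 mM, 800 mM and hMeDIP they were 4.60, 4.46 and 4.03 with 500 bp bins, 5.00, 5.21 and 4.20 after thinning, and 4.68, 4.62 and 4.06 with averaged input. For 600 mM, 800 mM and MeDIP they were 4.57, 4.53 and 4.66 with 5 input reads. For 600 and 800 mM they were 5.19 and 5.68 with median scaling and 4.92 and 5.03 with column 4 at 0. The 800 mM median was 4.99 with bins shifted by 500 bp. hMeDIP had the lowest median under all 12 alternatives, while the order of the other 3 varied. Keeping 1 read per position and strand in the eluates gave 8064 members, with 9.26% in the last 5 Mb and 14.0% touching another. The 600 and 800 mM medians were then 4.85 and 4.88.

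The share of members one-sided to the same strand in both antibody libraries was 37.6% at 75%, 6.40% at 90%, 48.0% with 40 reads and 28.9% with averaged input. The averaged input, the single reads per position and the strand settings were chosen after seeing the data. No paired analysis was possible because each group has 1 library, and for the same reason no replicate could be left out. The cause of these shifts was not tested. A median of 4 input reads per member limits the precision of each ratio.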
